A study of Drosophila melanogaster with 24 samples.

Results

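Occupancy of Stwl was set against that of BEAF in wild-type (WT) Drosophila melanogaster ovaries. The members were every interval of the Stwl WT list (8585) and of the BEAF WT list (5092), taken by their sample labels. They make up 13677 of the 26565 deposited intervals, and come from 2 of the 24 samples. CUT&RUN, the assay used, cuts and releases the DNA next to an antibody-bound protein in permeabilised tissue. Both samples were WT ovary tissue labelled as differentiated stages, with an antibody to Stwl made in an academic laboratory and an antibody to BEAF from the Developmental Studies Hybridoma Bank. Every sample of the series is ovary, and the rest profile these proteins in 2 other genotypes, IgG or histone marks. The list for Stwl in ovaries labelled bam GKD, described as undifferentiated stages, was used for 1 side comparison.

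Stonewall (Stwl) is a DNA-binding protein of the female germline that is needed to keep germline stem cells. BEAF, encoded by BEAF-32, was isolated as a protein of the scs' boundary element next to the Hsp70 genes, and is known to lie near the starts of closely spaced, widely expressed genes. Boundary elements are DNA stretches that separate neighbouring domains of gene regulation. An ovary holds germline and somatic cells together, so 2 overlapping intervals show that both proteins were found at a place, and not that they sat there in the same cells. The lists hold positions only, so the labelled tissue could not be checked against marker genes.

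The lists were not made alike. No neighbouring Stwl intervals lay closer than 1001 bp, so that nearby Stwl sites appear as 1 joined interval, while 1638 of the gaps between BEAF intervals (32.3%) were 1000 bp or less and the smallest was 76 bp. On the chromosome arms Stwl had 8576 intervals with a median width of 721.5 bp (range 176 to 72696 bp), which covered 8.76% of the span examined. BEAF had 5083 intervals with a median of 236 bp (range 147 to 6463 bp), covering 1.45%. Joining the BEAF list across gaps of 1000 bp or less left 3445 intervals. No list of IgG was used, so that signal common to any antibody was not separated from the rest. Neither list has a score or read count, and there was 1 list per protein, so that no value below has a replicate error. The bracketed ranges are exact (Clopper-Pearson) 95% intervals, which cover counting error only. Intervals and genes are not replicates, and no test was made over them.

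Most BEAF intervals met Stwl, and most Stwl intervals had no BEAF. Of the 5083 BEAF intervals, 3611 overlapped Stwl by at least 1 bp, or 71.0% (69.8 to 72.3). Of the 8576 Stwl intervals, 2301 overlapped BEAF, or 26.8% (25.9 to 27.8). By a stricter definition, 27.2% of BEAF centres lay within 250 bp of a Stwl centre. Joining BEAF in the same way left the share at 71.2%. Among the joined BEAF intervals, 62.5% of those made of 1 interval met Stwl, against 88.4% of those made of 2 and 96.1% of those made of 3 or more.

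Wider intervals met the other protein more often, with 1 exception. BEAF intervals of 500 bp to under 1000 bp overlapped Stwl in 93.8% of cases and those of 1000 bp and over in 98.4%. The share was 65.3% under 200 bp and 56.4% from 200 bp to under 300 bp, so it did not climb evenly. Among Stwl intervals the share with BEAF was 12.5% under 500 bp, 27.9% from 500 bp, 32.4% from 1000 bp, 44.8% from 2000 bp and 64.3% from 5000 bp, each class running up to the next. A wide interval has more room for an overlap. Of the Stwl intervals with BEAF, 1529 held 1 BEAF interval (median Stwl width 924 bp), 514 held 2 (1822.5 bp), 149 held 3 (2867 bp) and 109 held 4 or more (4838 bp).

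The proteins met most often at gene ends. An interval was placed at a gene end when it overlapped the stretch of 500 bp to each side of the first or last annotated base of a protein-coding gene. BEAF intervals at gene ends overlapped Stwl in 83.2% of cases (2723 of 3273), against 49.2% inside genes and 48.4% outside genes. Stwl intervals at gene ends held BEAF in 39.6% of cases (2076 of 5247), against 6.39% inside genes and 7.90% outside them. This difference was present in each width class of Stwl: under 500 bp it was 23.7% at gene ends and 2.23% inside genes, and at 5000 bp and over 71.5% and 30.5%. BEAF centres numbered 551 per Mb in the parts of Stwl intervals at gene ends and 134 per Mb in the parts away from them. Outside Stwl they numbered 40.1 per Mb at gene ends and 9.50 per Mb in the remaining 106.0 Mb (1007 centres).

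BEAF intervals without Stwl lay at gene ends less often, in 37.4% of cases against 75.4% of those with Stwl. Their centres were a median of 1364.75 bp from the nearest gene end, against 196.5 bp for BEAF intervals with Stwl. Of those without Stwl 48.1% lay inside genes, against 19.0% of those with Stwl (687 of 3611). Some 54.4% of BEAF intervals with Stwl touched the ends of 2 or more genes, and 20.8% of those without did. They were also narrower, with a median of 207 bp against 259 bp. Stwl intervals with BEAF had a median width of 1348 bp and touched the ends of 2 or more genes in 77.3% of cases, against 549 bp and 32.1% for Stwl intervals without BEAF.

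**Figure D1:**
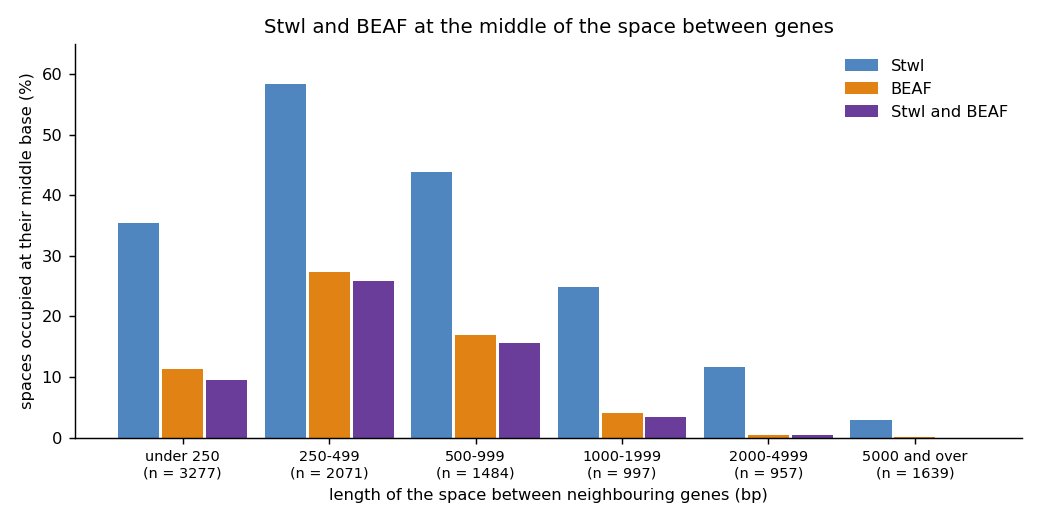
The bars give the share of spaces between neighbouring protein-coding genes whose middle base was occupied by Stwl, by BEAF or by both (vertical axis, %), by the length of the space (horizontal axis, bp, with the number of spaces). All 3 shares are highest in spaces of 250 bp to under 500 bp, at 58.4% for Stwl, 27.3% for BEAF and 25.8% for both.

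Occupancy between neighbouring genes was highest in spaces of middle length. At the middle base of spaces of 250 bp to under 500 bp, Stwl was present in 58.4%, BEAF in 27.3% and both in 25.8% of 2071 spaces. In the 3277 shorter spaces the shares were lower, at 35.5%, 11.3% and 9.46%, and from 500 bp to under 1000 bp they were 43.8%, 17.0% and 15.6%. In spaces of 1000 bp to under 2000 bp the shares were 24.8%, 4.11% and 3.41%. In those of 2000 bp to under 5000 bp Stwl was still at the middle of 11.6%, while BEAF was at the middle of 0.418%, or 4 of 957, and from 5000 bp the shares of Stwl and BEAF were 2.99% and 0.122%. Long spaces were not empty away from their middle. Anywhere in the space, Stwl was present in 38.9% and BEAF in 10.7% from 2000 bp to under 5000 bp. From 5000 bp these shares were 40.8% and 17.2%, against 62.1% and 30.1% from 250 bp to under 500 bp. Gene strand was not held, so head-to-head and tail-to-tail neighbours could not be told apart.

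The chromosomes differed in how much BEAF they carried. The X chromosome held 31.0% of BEAF intervals and 19.4% of Stwl intervals. The X had 1577 BEAF intervals and the large autosome arms 777 to 925 each, or 0.947 BEAF intervals per Stwl interval on the X against 0.472 to 0.530. Stwl itself reached 71.9 intervals per Mb on the X and 56.7 to 66.6 on those arms. The share of BEAF intervals with Stwl was 63.0% on the X (993 of 1577) and 74.7% on the autosomes (2618 of 3506), with intervals of 60.5 to 65.4 and 73.2 to 76.1. The X therefore held 39.7% of all BEAF intervals without Stwl. On the small chromosome 4, most of which is packed as heterochromatin, 119 of 126 BEAF intervals (94.4%) overlapped Stwl.

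Inside Stwl intervals BEAF was spread widely, with a slight lean to the centre that lay mainly in narrow Stwl intervals. The place of each BEAF centre was measured from 0 at the centre of the Stwl interval to 1 at its edge. Over 3612 overlapping pairs the median was 0.487, where an even spread gives 0.5. With each Stwl interval divided into 3 zones of equal length, the central zone held 35.4% of BEAF centres (33.8 to 36.9), the intermediate zone on its flanks 33.3% and the outer zone 26.9%, and 4.51% lay beyond the edge. An even spread would put 33.3% in each zone. By Stwl width the central zone held 38.1% under 500 bp, 37.6% from 500 bp, 34.8% from 1000 bp, 34.3% from 2000 bp and 33.9% from 5000 bp. Gene ends in the same Stwl intervals, over all widths, had much the same shares, at 35.2%, 34.6% and 30.2%. BEAF lay wholly inside Stwl in 73.1% of pairs, crossed one edge in 20.8% and held the whole Stwl interval in 6.12% (221 pairs).

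The lean to the centre was clearer where a Stwl interval held 1 BEAF interval. In those 1529 intervals 40.3% of BEAF centres were in the central zone (37.8 to 42.8) and 27.01% in the outer zone or beyond, with a median of 0.435. At a Stwl width of 500 bp to under 1000 bp the central zone held 44.2% of them. In the 514 Stwl intervals with 2 BEAF intervals the central zone held 28.8% and the outer zone or beyond 35.9%. With 3 or more the shares were 34.6% and 33.4%. In distance, the median offset from the Stwl centre grew from 84.5 bp in Stwl intervals under 500 bp to 2218.25 bp in those of 5000 bp and over. Without the Stwl intervals of the chorion gene clusters, which held the most BEAF intervals, 35.3% of all centres were in the central zone.

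**Figure D2:**
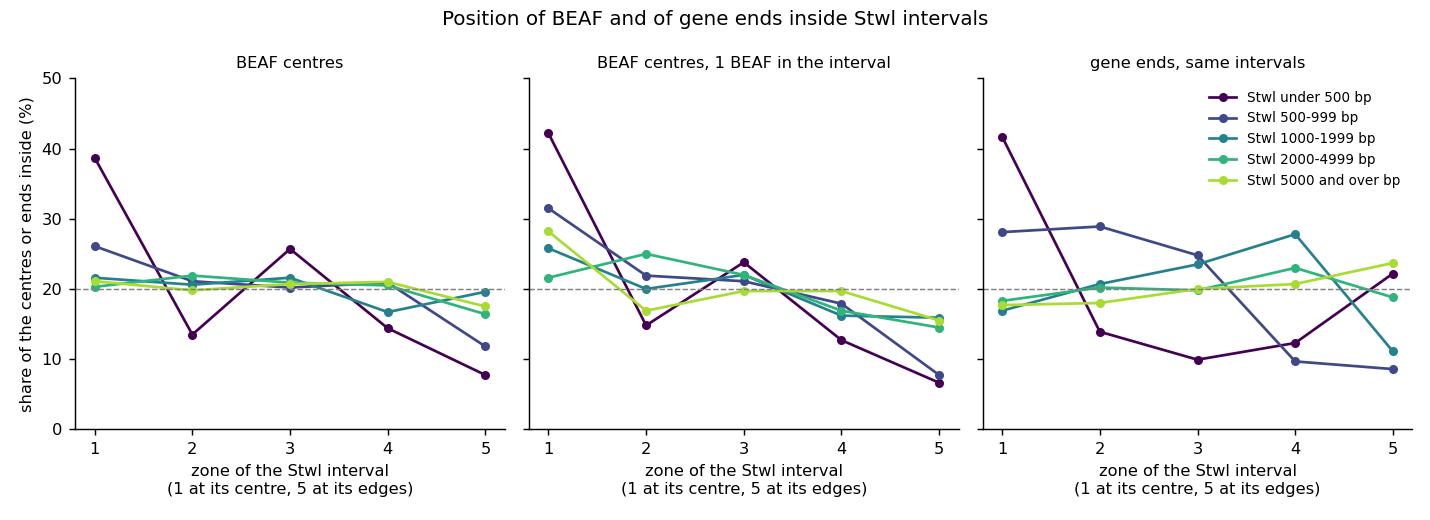
Each point is the share (%) of BEAF centres, or of annotated gene ends, that fell in each of 5 zones of equal length in the Stwl interval (horizontal axis), from 1 at the centre to 5 at the edges, with 1 line per Stwl width class and a dashed line at the 20% of an even spread. In Stwl intervals under 500 bp with 1 BEAF interval, 42.2% of the centres were in the innermost zone and 6.63% in the outermost, and the lines of wider intervals lie nearer to 20%.

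Gene ends themselves leaned the same way in narrow Stwl intervals. Of the gene ends inside Stwl intervals that held BEAF, 50.8% were in the central zone where Stwl was under 500 bp wide, 47.6% from 500 bp to under 1000 bp and 29.5% at 5000 bp and over. In 1115 Stwl intervals with 1 BEAF interval and at least 1 gene end, the BEAF centre was nearer to the Stwl centre than the nearest gene end was in 437 (39.2%, 36.3 to 42.1). The median offset from the Stwl centre was 196.5 bp for BEAF and 153 bp for that gene end. The gene end was the nearest of all ends inside the interval, so intervals with more than 1 favour it over BEAF. The BEAF centre was a median of 132 bp from its own nearest annotated gene end, which need not be the same one.

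**Figure D3:**
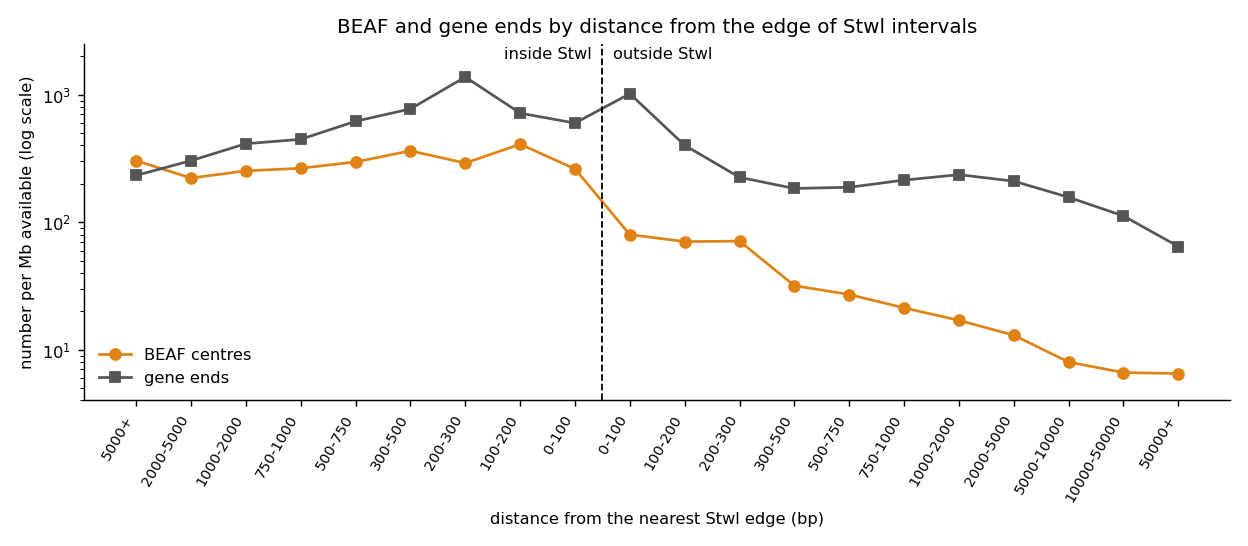
The lines give the number of BEAF interval centres and of annotated gene ends per Mb (vertical axis, log scale) by distance from the nearest edge of a Stwl interval (horizontal axis, bp, inside on the left and outside on the right). BEAF stands at 262 per Mb in the 100 bp inside the edge and 79.9 per Mb in the 100 bp outside it, and gene ends at 599 and 1018 per Mb.

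At the Stwl edge the BEAF density dropped. It was 409 per Mb at 100 to 200 bp inside, 262 in the last 100 bp inside, 79.9 in the first 100 bp outside, 31.8 at 300 to 500 bp outside and 6.50 beyond 50000 bp. Gene ends did not drop in this way, with 599 per Mb in the last 100 bp inside and 1018 per Mb in the first 100 bp outside. They were most dense at 200 to 300 bp inside the edge, at 1377 per Mb.

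Where BEAF at a gene end had no Stwl over it, Stwl was often still near. All 1472 BEAF intervals without Stwl lay a median of 2235 bp from the nearest Stwl interval (lower quartile 480.8 bp, upper quartile 10167.8 bp). Of them 36.1% were within 1000 bp, against 24.6% of the gene ends that lay outside Stwl, whose median was 3469 bp. For BEAF at gene ends the share was 51.1% and the median 933 bp. For BEAF away from them these were 27.1% and 4011.5 bp, a median farther than that of the gene ends. On the X the median was 3020 bp, against 1752.5 bp on the autosomes. Counting overlaps, 81.5% of BEAF intervals were within 1000 bp of Stwl, and 45.2% were when only Stwl intervals under 2000 bp were kept. From the other side, Stwl intervals without BEAF lay a median of 11844 bp from the nearest BEAF interval, and 3.25% were within 1000 bp. For gene ends outside BEAF the median was 10447 bp and the share 13.7%. Stwl intervals are at least 1001 bp apart, so BEAF wholly inside a neighbouring Stwl interval is over 1000 bp away by construction. The 3.25% is therefore no measure of separation between the proteins.

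Stwl in undifferentiated stages was also set beside these classes. BEAF intervals with WT Stwl were overlapped by Stwl of bam GKD ovaries in 86.1% of cases, and those without WT Stwl in 24.1%. WT Stwl intervals with and without BEAF had a bam GKD partner in 91.6% and 82.8% of cases. In the narrowest width class, under 500 bp, these were 71.8% and 73.0%, and from 500 bp to under 1000 bp 90.8% and 86.4%. The classes differ in width, and the bam GKD list covers more of the genome (16.2%). Although the sample is described as undifferentiated stages, the bam GKD list had intervals over both clusters of chorion genes. These genes are used by follicle cells of late egg chambers. The list's widest interval, of 81541 bp, lies over the 3L cluster, and an interval of 50884 bp lies over the X cluster. An interval shows Stwl at a place and not gene use, so whether late egg chambers were present could not be told. The part of these intervals in the shares above was not tested.

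Genes were put in 4 classes by which protein had an interval at either end. Of 13922 protein-coding genes, 55.7% had Stwl and 28.1% had BEAF. Both were found at 3678 genes (26.4%), Stwl without BEAF at 4082 (29.3%), BEAF without Stwl at 238 (1.71%) and neither at 5924 (42.6%). Genes with both had the proteins at the same end in 3599 cases (97.9%). Stwl was at both ends of 49.1% of them, and BEAF at both ends of 20.9%. Median gene length was 2931 bp for genes with both, 2566.5 bp with Stwl without BEAF, 2209.5 bp with BEAF without Stwl and 1603 bp with neither.

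The class of BEAF without Stwl was the least stable. It held 714 genes when only the wider 50% of each list was used, 479 when an interval had to lie in the gene itself, and 144 with the first 50% of the BEAF list in its deposited order. The count with both fell to 1974 for the wider 50% of each list. Among the genes with Stwl without BEAF, 284 had BEAF inside the gene away from its ends, and 456 (11.2%) had a Stwl interval that held BEAF at another place. On the X 39.7% of genes had both, against 23.4% to 24.2% on the large autosome arms. All 80 genes of chromosome 4 had Stwl, and 39 of them also had BEAF.

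**Figure D4:**
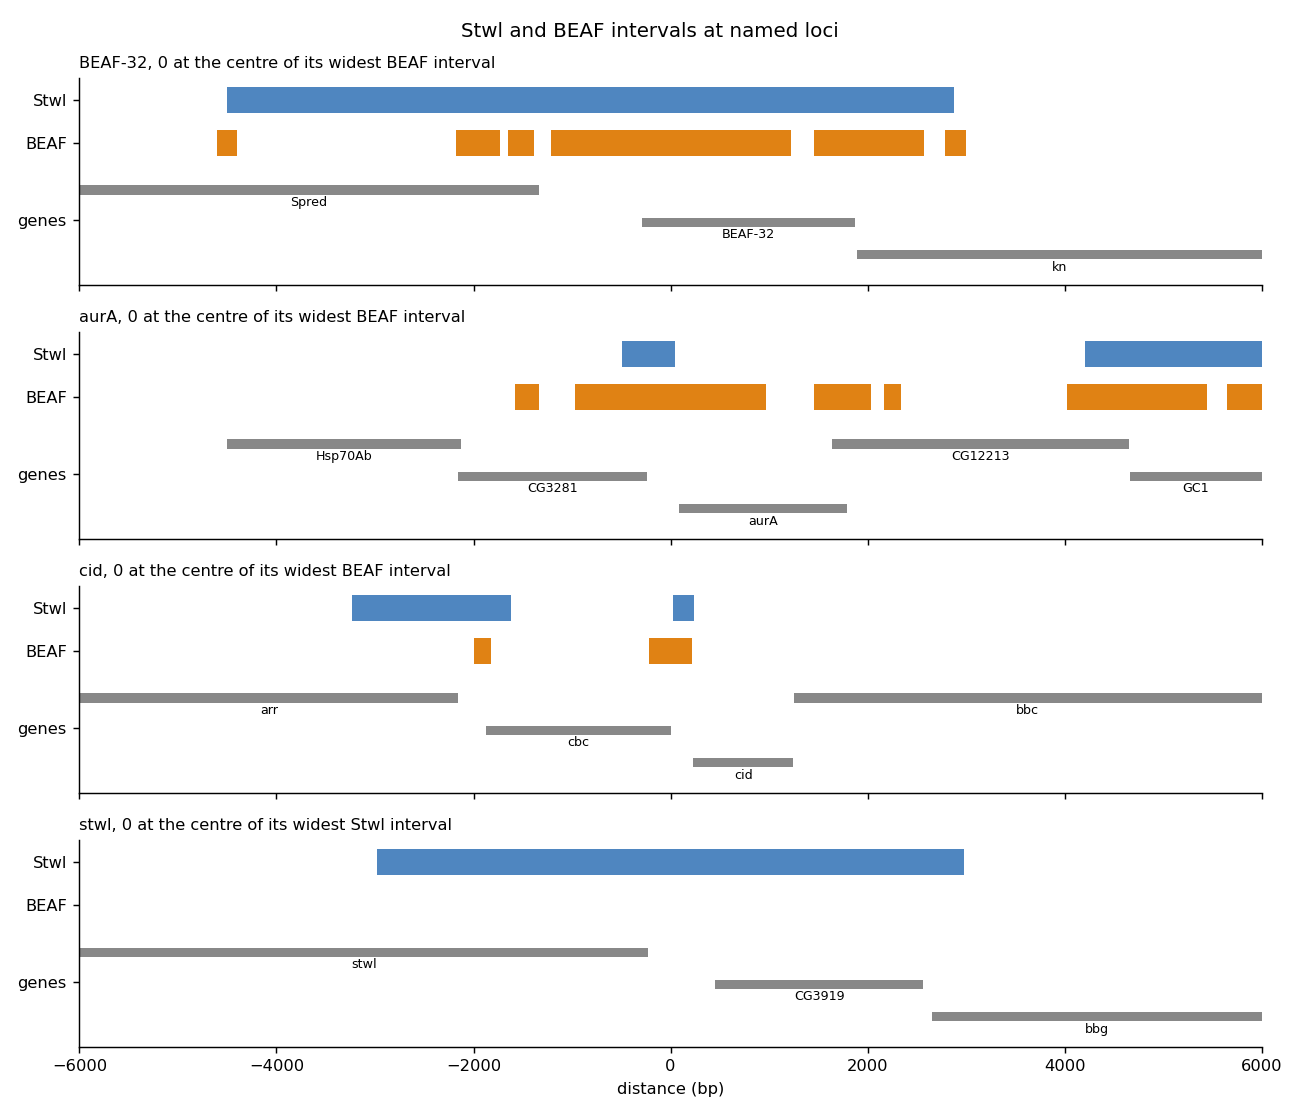
Intervals of Stwl (blue) and BEAF (orange) and annotated genes (grey) are drawn to scale around 4 loci, with distance in bp (horizontal axis) from the centre of the locus's widest BEAF interval, or Stwl interval for stwl. At BEAF-32, 6 BEAF intervals lie in the 7383 bp Stwl interval or across its edges. BEAF covers the 539 bp Stwl interval at aurA, meets a 212 bp Stwl interval at cid, and is not in view at stwl.

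At the gene of BEAF itself, BEAF-32 (2R:14770469-14772630, dm6), a Stwl interval of 7383 bp (2R:14766258-14773640) held 6 BEAF intervals. The widest of them was 2436 bp and its centre lay 812.5 bp from the Stwl centre, at 0.22 of the way to the edge. At the scs' boundary, between CG3281 and aurA, which encodes the mitotic kinase Aurora A, the order was reversed. There a BEAF interval of 1939 bp (3R:11962070-11964008) held a Stwl interval of 539 bp (3R:11962548-11963086), with the centres 222 bp apart. At cid, which encodes the centromeric histone, a BEAF interval of 440 bp crossed the edge of a Stwl interval of 212 bp, so that the BEAF centre was beyond the Stwl edge.

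The gene stwl had no BEAF near it. Its Stwl interval of 5963 bp (3L:14407189-14413151) covered one end of the gene, and the nearest BEAF interval was 138022 bp away. The gene bam, whose product starts the differentiation of germline stem cell daughters, had Stwl 53 bp from its end and BEAF 591 bp from it, just outside the window. The Stwl interval next to bam (5008 bp, 3R:25245163-25250170) ran on to Nup37 and Nup358, 2 nucleoporin genes, and held 4 BEAF intervals, the widest of which (1656 bp) lay at the facing ends of those 2 genes. All 3 genes thus shared 1 Stwl interval and fell in 2 classes.

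The widest BEAF interval of all, 6463 bp, lay over the chorion gene Cp15 on 3L. Chorion genes encode eggshell proteins, and follicle cells amplify their DNA. The Stwl interval there was also the widest (3L:8688702-8761397, 72696 bp) and held 43 BEAF intervals. The other chorion cluster, on the X around Cp36 and Cp38, had a Stwl interval of 62801 bp (X:8463044-8525844) with 44 BEAF intervals, and took in the ovarian tumour gene otu. The next highest number was 14, in a Stwl interval of 24245 bp on chromosome 4 with the gene ci, the transcription factor of Hedgehog signalling, RpS3A and pan. Copy number was not measured, and its part in the width of these intervals was not tested. With the Stwl intervals of the chorion clusters removed, 69.3% of BEAF intervals overlapped Stwl, since the BEAF intervals there then count as without Stwl.

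Other wide BEAF intervals at genes with both lay at the eye colour gene w (3459 bp), at AlkB (3475 bp) and at the plexin gene PlexB on chromosome 4 (3473 bp). At Rpn12, a proteasome subunit, the Stwl and BEAF intervals were nearly the same stretch, at 3187 bp and 3182 bp, with centres 2.5 bp apart. At Tudor-SN the BEAF interval (3084 bp) was wider than the Stwl interval (2205 bp), and at Wdr33, of the messenger RNA 3' end processing machinery, they measured 2895 bp and 2151 bp. At the signalosome gene CSN8 the BEAF interval of 2929 bp was 1 of 4 in a Stwl interval of 6455 bp.

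The wide Stwl intervals at the named genes without BEAF were not free of BEAF. Each of the 8 named for width held at least 1 BEAF interval elsewhere: those at Ank (58459 bp, 6 BEAF intervals), Ekar (26607 bp, 2), yellow-h (22850 bp, 1) and Rnf11 (21089 bp, 2) on chromosome 4, at Mob3 (27463 bp, 8) and mtgo (19178 bp, 2) on 2L, at Cyp6w1 (23056 bp, 1) on 2R, and at the chorion gene Cp7Fa in the X cluster. The window at the gene ends thus sets these 8 genes apart from the first class, and not an absence of BEAF from the Stwl interval.

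Among genes with BEAF and no Stwl, the widest BEAF interval was 2355 bp (X:2244553-2246907). It lay over the facing ends of Or2a, an odorant receptor gene, and fs(1)K10, needed for the dorsal-ventral axis of the oocyte. The nearest Stwl interval was 15284 bp away. At CCT1, a subunit of the chaperonin that folds tubulin and actin, BEAF covered 1042 bp and Stwl was 25806 bp away. At l(2)k01209 (1013 bp) Stwl was 6042 bp away, and at mthl7 (1063 bp) 1377 bp. At Grx5 (2027 bp), which acts in iron-sulphur cluster assembly, at janB (1128 bp) and at the gut protease gene Jon65Ai (1051 bp) the BEAF interval did touch Stwl, on the side away from the gene. Over the 238 genes of this class the BEAF interval touched Stwl at 18, lay within 1000 bp of it at 24 and over 10000 bp from it at 49, with a median of 3428 bp.

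Groups of genes were described by how many members fell in each class, beside the 26.4% of all genes with both. Of 37 lists, 26 had a larger share with both. Where more genes of a list have Stwl, its share with both can be larger without more BEAF among them. Among genes with Stwl, BEAF was at 47.4% over all genes, 73.9% for cytoplasmic ribosomal proteins and 70.0% for the trithorax group. It was at 51.7% for nucleoporins, 45.8% for the piRNA pathway and 35.3% for the Polycomb group. These lists were chosen with earlier results known, and no list was tested.

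**Figure D5:**
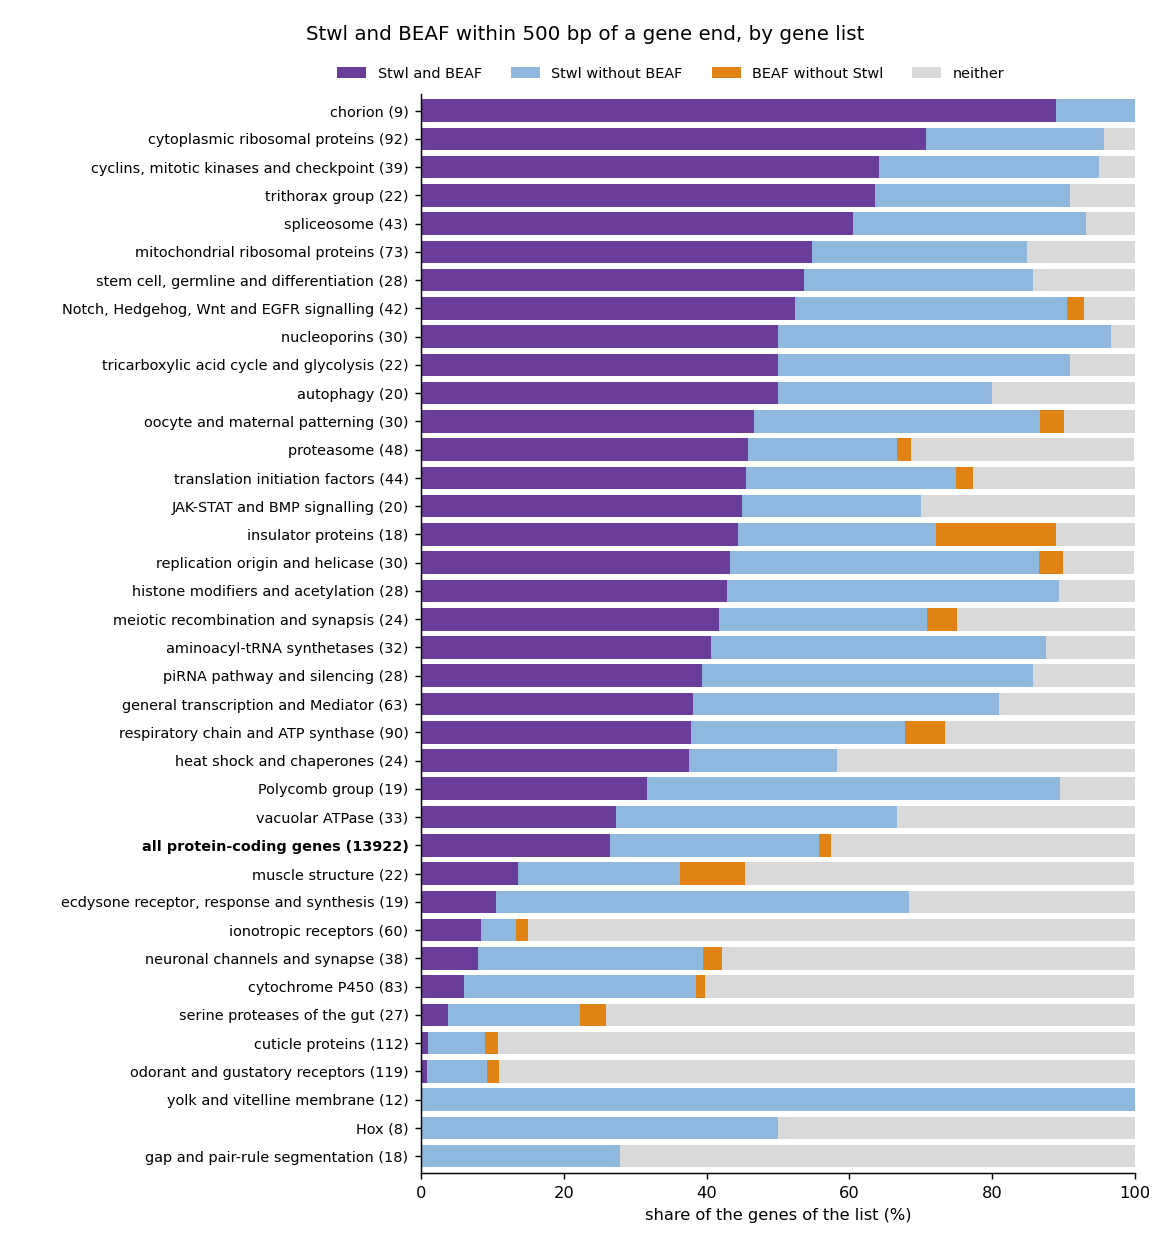
Each bar is 1 gene list, with its number of genes in brackets, divided by the share (%) of genes with both proteins, Stwl without BEAF, BEAF without Stwl or neither within 500 bp of a gene end. Chorion (88.9%) and cytoplasmic ribosomal protein genes (70.7%) have the highest shares with both, all protein-coding genes stand at 26.4%, and yolk and vitelline membrane genes have Stwl alone.

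Genes for the ribosome came near the top. Of 92 cytoplasmic ribosomal protein genes, 65 had both (70.7%), 23 had Stwl without BEAF, none had BEAF alone and 4 had neither. At RpS24 the BEAF interval (2242 bp) was wider than the Stwl interval (1653 bp), and at RpS12 they were 2190 bp and 3330 bp. RpS13 shares its BEAF interval of 2929 bp with the neighbouring CSN8. RpL37A, RpL21 and RpL12 had Stwl intervals of 5652, 4699 and 4443 bp and no BEAF at an end, although BEAF was 742 bp from RpL12. The paralogues RpS19a and RpS19b differed. RpS19a had a Stwl interval of 4436 bp and a BEAF interval of 1191 bp, while RpS19b, a paralogue used in the germline, had a Stwl interval of 179 bp lying 441 bp away with the nearest BEAF 3287 bp from the gene. RpS5a had both and RpS5b had Stwl alone. The 4 with neither were RpL10Aa, RpL22-like, RpL37-2 and RpS10a, all copies of another ribosomal protein gene. Reads from near-identical copies can be placed at either, and no source used here says how such reads were treated. Of 73 mitochondrial ribosomal protein genes 40 had both (54.8%), with mRpL17 sharing the BEAF interval of Tudor-SN.

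Nucleoporins form the pore of the nuclear envelope. Of 30 genes, 15 had both (50.0%), 14 had Stwl without BEAF and 1, Ndc1, had neither, with Stwl 988 bp and BEAF 833 bp from it. Stwl was thus at an end of 29 of the 30, against 55.7% of all genes. At Nup58 a BEAF interval of 728 bp crossed the edge of a Stwl interval of 2705 bp. Mgtor, of the nuclear basket, had a Stwl interval of 194 bp and a BEAF interval of 557 bp over it. At Nup153 the widest Stwl (4189 bp) and the widest BEAF interval (1752 bp) lay at different ends of the gene. Nup188 and Nup205, of the inner ring, had Stwl intervals of 2555 and 1938 bp, with BEAF 27196 and 6225 bp away.

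Germline genes were divided. Of 28 genes of stem cell maintenance, germline and differentiation, 15 had both (53.6%), 9 had Stwl without BEAF and 4 had neither. Those with both included mei-P26, a regulator of differentiation (BEAF 2541 bp, Stwl 3401 bp), the BMP receptor gene tkv (1946 and 2063 bp), nanos (1074 and 1727 bp) and hts, of the fusome (1554 and 8810 bp). Stwl without BEAF was found at vas, aub and ovo besides stwl and bam, with Stwl intervals of 3121, 5605 and 3797 bp. At ovo, a germline transcription factor, BEAF was 1335 bp away. The 4 with neither were Rbfox1, dpp, tut and zpg. In the list of oocyte and maternal patterning genes 14 of 30 had both (46.7%). Among them was pgc, where a Stwl interval of 371 bp and a BEAF interval of 2078 bp lay at the same end without touching. Stwl without BEAF was at 12, among them gus (9311 bp) and gnu (7621 bp). BEAF did lie inside gus, away from its ends.

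Genes of meiosis and of the piRNA pathway, which silences transposons, had somewhat smaller shares with both. Of 24 meiotic genes 10 had both (41.7%), 7 Stwl without BEAF and 6 neither. At c(3)G, of the synaptonemal complex, the intervals were 2012 bp for Stwl and 2061 bp for BEAF. The meiotic gene vilya and its neighbour dwg, which encodes an insulator protein, had a BEAF interval of 219 bp near their facing ends (X:2727714-2727932). It lay inside dwg, 145 bp from vilya and 4296 bp from Stwl. Of 28 piRNA genes 11 had both (39.3%) and 13 had Stwl without BEAF, so that Stwl was at 85.7% of them. The export factor gene nxf2 shared the interval of Rpn12, and squ had a BEAF interval of 985 bp in a Stwl interval of 11561 bp.

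Genes for boundary proteins had the largest share of BEAF without Stwl among the 37 lists, at 3 of 18 (16.7%, against 1.71% of all genes). They were Elba2, ZIPIC and dwg. At Elba2 the BEAF interval (859 bp) touched a Stwl interval that ended 665 bp from the gene. At ZIPIC the BEAF interval of 377 bp was 2023 bp from Stwl. With 18 genes in the list, 1 gene more or less moves the share widely. Both proteins were at 8 genes, including Ibf1 and Ibf2, which share a Stwl interval of 4086 bp and a BEAF interval of 2217 bp, pita (3185 and 1082 bp), and Cp190 (855 and 876 bp), whose product binds many insulator proteins. Stwl without BEAF was found at 5, including Chro (1501 bp), M1BP (1204 bp), su(Hw) (1025 bp) and CTCF (796 bp).

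Genes of cell division and gene expression ranged from 38.1% to 64.1% with both. Of 39 cyclin, mitotic kinase and checkpoint genes 25 had both (64.1%) and 2, stg and borr, had neither. At Bub1 of the spindle checkpoint the BEAF interval was 1802 bp and the Stwl interval 695 bp, while Cdk1 had a Stwl interval of 10207 bp and BEAF 7471 bp away. Of 43 spliceosome genes 26 had both (60.5%), such as SmE (Stwl 912 bp, BEAF 1944 bp). Of 30 replication genes 13 had both (43.3%) and 1, Orc5 of the origin recognition complex, had BEAF without Stwl (582 bp). Of 32 aminoacyl-tRNA synthetase genes 13 had both (40.6%), and of 63 genes of general transcription and Mediator 24 (38.1%).

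Chromatin regulators of opposite roles differed in count. Of 22 trithorax group genes, which keep genes active, 14 had both (63.6%), among them Iswi (BEAF 1469 bp, Stwl 758 bp) and fs(1)h (1423 and 7601 bp). Of 19 Polycomb group genes, which keep genes silent, 6 had both (31.6%) and 11 had Stwl without BEAF. Asx (BEAF 1883 bp, Stwl 1717 bp) and Pc (347 and 724 bp) were among the first, and ph-p (Stwl 3450 bp) among the second. BEAF did lie inside ph-p, away from its ends. The lists hold 22 and 19 genes, and the difference between them was not tested.

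Genes of energy supply and protein turnover ranged from 27.3% to 50.0% with both. Of 22 genes of the tricarboxylic acid cycle and glycolysis 11 had both (50.0%), such as Gapdh2 (Stwl 8955 bp, BEAF 2322 bp). Of 90 respiratory chain and ATP synthase genes 34 had both (37.8%), 27 had Stwl alone and 5 had BEAF alone: UQCR-C2, ND-13B, SdhBL, ND-13A and ND-19. At UQCR-C2, the neighbour of Rpn12, the BEAF interval of 631 bp lay 1037 bp from Stwl. Of 48 proteasome genes 22 had both (45.8%) and 15 had neither. Apart from Rpn8 and Rpt4, those with neither were copies with R or T in the symbol, such as Prosalpha3T and Prosalpha6T, many of them used in the testis. Of 33 vacuolar ATPase genes 9 had both (27.3%) and 11 neither.

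The patterning genes of the embryo rarely had BEAF. None of the 8 Hox genes had both. Stwl without BEAF was found at pb, lab, Ubx and abd-A, with intervals of 1713, 1686, 1287 and 206 bp. The other 4, Antp, Dfd, Scr and Abd-B, had neither at an end. None of 18 gap and pair-rule genes had both, and 5 had Stwl without BEAF, among them Kr (2263 bp), from which BEAF was 214650 bp away. Of 19 ecdysone genes 2 had both and 11 had Stwl without BEAF, with EcR under the same 23056 bp Stwl interval as Cyp6w1. BEAF did lie inside EcR, away from its ends. At Eip74EF the widest BEAF interval (1772 bp) was shared with the neighbouring CycT. By contrast, 22 of 42 genes of Notch, Hedgehog, Wnt and EGFR signalling had both (52.4%). Among these the ligand gene hh had BEAF 196 bp from it and no Stwl at an end and wg had neither, with Stwl 25307 bp away.

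Egg components were of 2 kinds. All 12 yolk and vitelline membrane genes had Stwl without BEAF. The Stwl interval at Vm34Ca measured 15201 bp and that at Yp3 5211 bp, and the neighbouring genes Yp1 and Yp2 shared one of 702 bp, with BEAF 27064 bp from Yp1 and 29926 bp from Yp2. Of 9 chorion genes, by contrast, 8 had both and 1, Cp7Fa, had Stwl and no BEAF at an end, although BEAF lay inside the gene. All 9 lie under 2 Stwl intervals, so these are not 9 separate cases.

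Genes for receptors, cuticle, detoxification, nerve and gut mostly had neither. This held for 106 of 119 odorant and gustatory receptor genes (89.1%), 100 of 112 cuticle protein genes (89.3%), 51 of 60 ionotropic receptor genes (85.0%), 50 of 83 cytochrome P450 genes (60.2%), 22 of 38 neuronal genes (57.9%) and 20 of 27 gut serine protease genes (74.1%), against 42.6% of all genes. Both were at 1 odorant or gustatory receptor gene, Gr21a (Stwl 353 bp, BEAF 239 bp), and at 1 cuticle gene, Cpr65Ec (2677 and 404 bp). Of the ionotropic receptor genes, 5 had both (8.33%). Stwl without BEAF was at 27 of the P450 genes (32.5%) and 12 of the neuronal genes (31.6%), near the 29.3% of all genes, while both were at 5 (6.02%) and 3 (7.89%), against 26.4% of all genes. Of 22 muscle genes 3 had both, 1 of which, Prm, lies under the wide chorion interval of 3L.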

How the data were processed

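Each list holds positions alone (chromosome, start and end on dm6): the authors deposited no score, strand or count with these interval coordinates. Tools named in the submitters' processing notes were MACS2 2.1.0, Bowtie2 2.2.8, deepTools 3.2.1, Trim Galore 0.6.6, SAMtools 1.9 and FastQC 0.11.8. What each did, with which settings, control and threshold, and whether duplicates were pooled, was not given in the sources used here. Read depth is unknown, and a deeper library could give more or wider intervals.

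Compared were the intervals on X, 4 and the arms of chromosomes 2 and 3, counted from 1. Genes came from a RefSeq table (Release 6 plus ISO1 MT, the same assembly) of 17872 genes. Of these, 13922 are protein-coding and lie on those arms. Without strand, transcripts and sequence in that table, exons, UTRs and promoters were not separated. A gene had a protein when an interval overlapped the 500 bp to either side of an annotated end. Shares have exact 95% intervals. Python 3.11.15, pandas 2.3.3, NumPy 2.4.6, SciPy 1.17.1 and Matplotlib 3.10.9 were used, and the scripts were tested on simulated intervals.

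The members, the 37 gene lists and the rules were chosen with earlier results of these data known. Named were BEAF-32, stwl, bam, aurA, CG3281 and cid, in each of 3 classes the 8 genes with the widest interval (1 gene per interval, CG and CR numbers left out), and up to 4 members of each class of a gene list, by width. Not all of these are reported. Further members, such as the ribosomal protein paralogues, were chosen after their values were seen. Some listed symbols were updated to those of the table. The samples other than Stwl WT, BEAF WT and Stwl bam GKD were not analysed here. Alternatives were other windows, overlaps, widths and joining.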

Additional observations from a re-analysis of the deposited data

Results flagged for a closer look

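Both lists hold intervals on the Y chromosome, which no comparison used and which WT ovaries are not expected to carry. There were 9 Stwl intervals (median width 284 bp) and 9 BEAF intervals (median width 250 bp) on it. Both exceed 3, the upper limit for a count of 0, which is no test of called intervals. Of them 2 Stwl intervals were overlapped by BEAF and 4 BEAF intervals were overlapped by Stwl. No control list was used, and the origin of these intervals was not tested.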

How the results depend on the processing

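The share of BEAF intervals with Stwl fell from 71.0% to 27.2% for centres within 250 bp, and was then no longer most of the list. BEAF within 1000 bp of Stwl likewise fell from 81.5% to 45.2% with Stwl intervals under 2000 bp only. In every alternative the share of BEAF intervals with Stwl stayed above that of Stwl intervals with BEAF. The Stwl list was the longer in each, which by itself favours this order. Of 51 alternatives to the main results, 32 moved the value by less than its counting interval, or a count by less than 1.5 times, and 19 moved it further. Some alternatives differ by construction, since fewer or narrower intervals were kept, and the cause of the other shifts was not tested. Others could not move. The gene class counts with BEAF joined, which are among the 32, were fixed in advance. The window at a gene end is longer than any gap that joining filled. Genes with both numbered 1974 with the wider 50% of each list. Genes with BEAF without Stwl numbered 479 with an interval anywhere in the gene, 714 with the wider 50% and 144 with the first 50% of the BEAF list in its deposited order. The share of BEAF intervals with Stwl was 69.0% when 50% of the shorter interval had to overlap, 27.2% for centres within 250 bp, 60.9% for the wider 50%, 74.1% for the first 50% of the BEAF list and 69.3% without the Stwl intervals of the chorion clusters, where the BEAF intervals were kept and so count as without Stwl. The share of Stwl intervals with BEAF was 15.4%, 25.4% and 17.5% for centres within 250 bp, the wider 50% and the first 50% of the BEAF list. The central zone held 37.5% of centres with BEAF joined, 40.3% in Stwl intervals with 1 BEAF interval and 39.6% for BEAF wholly inside Stwl. The outer zone and beyond held 31.4% in all, 27.01% with 1 BEAF interval and 22.8% for BEAF wholly inside. BEAF within 1000 bp of Stwl was 77.4% with BEAF joined and 45.2% with Stwl intervals under 2000 bp only. The alternatives with the first 50% of the BEAF list, without the chorion clusters and with Stwl under 2000 bp were chosen after seeing the data. The BEAF list is not in genome order, and no source used here says what its order means.

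Windows of 250 and 1000 bp gave 24.1% and 29.3% of genes with both. In the gene lists 63 of 74 counts with both stayed within 1.5 times, and the 11 that moved were small, such as 0 to 2 odorant and gustatory receptor genes and 0 to 6 neuronal genes. A window at the gene start, CGATA in promoters and a stricter threshold were not run, since strand, sequence and scores were not used here. No paired analysis was possible because each protein has 1 list and the result comes from no test.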
